A study of Arabidopsis thaliana with 12 samples.

Results

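Seedlings of the Arabidopsis thaliana mutant amp1-13 were compared with wild-type seedlings after both had germinated and grown in hyperphyllin. The comparison used 6 arrays of the 12 in the series, 3 of amp1-13 with hyperphyllin and 3 of wild type with hyperphyllin, all in the Col-0 background. Hyperphyllin was given at 30 µM in 1% DMSO, and the other 6 arrays were of amp1-13 and of wild type, 3 each, with 1% DMSO alone. Whole seedlings were collected after 10 d in liquid medium in multi-well plates under long days. Arrays were placed in groups by their labels: genotype, with the medium held the same. The comparison was chosen with earlier results of these data known. Transcript levels were read on Affymetrix AraGene 1.1 ST arrays, and the labels call the 3 samples of a group biological replicates. Nothing in the labels says whether these were separate sowings, so p values measure the spread between these samples.

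AMP1 is a membrane protein of the endoplasmic reticulum that resembles carboxypeptidases. Loss of AMP1 is known for an enlarged shoot meristem, faster formation of leaves and altered hormone levels. Hyperphyllin is a synthetic compound that makes wild-type seedlings resemble amp1 mutants, so the comparison asks which differences between the genotypes are present when both grow with the compound. AMP1 itself was not analysed here, so it could not serve as a check of the labelled genotypes.

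The unit of test was the probe set, a group of array probes summarised into a single log2 level. Of 38408 probe sets, the 16746 (43.6%) whose annotation gave exactly 1 gene were tested. The 6 array medians lay between 4.1 and 4.13, and single levels between 0.774 and 12.731. The first principal component of the 6 arrays held 41.2% of their variance and separated the genotypes, with scores of -17.2, -19.7 and -11.1 for amp1-13 and of 16.5, 15.6 and 15.9 for wild type. The second component held 22.4% and set array 1 of amp1-13 (21.9) apart from arrays 2 and 3 of amp1-13 (-12.6 and -10.2) and from wild type (5.29, 3.84 and -8.24). Mean correlations with arrays of the same genotype were 0.991 to 0.995, and with the other genotype 0.988 to 0.991.

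Markers of tissues were checked by the sum of their linear levels, where few of the written markers were measured. The 3 measured leaf mesophyll markers of 10 summed to between 3800 and 4000 in amp1-13 and between 3690 and 3830 in wild type. Root was represented by 1 marker of 13, EXPA7, at 27.6 to 46.9 in amp1-13 and 30.5 to 43.9 in wild type. The seed marker OLEO3, 1 of 20 written, lay near the bottom of the scale at 3.49 to 3.82 in amp1-13 and 3.05 to 4.02 in wild type. The 4 measured flower and pollen markers of 16 summed to 17.1 to 17.5 in amp1-13 and 17.4 to 18.5 in wild type. The ranges of the 2 genotypes overlapped for the leaf, root, seed and flower markers, and levels of different probe sets are not compared. No level on this scale can be 0, so a dim marker cannot be read as absent.

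In hyperphyllin, amp1-13 and wild type differed in 365 probe sets (2.18% of those tested) at an adjusted p under 0.05, the threshold for a call here. Of these, 191 were higher in amp1-13 (1.14%) and 174 lower (1.04%), and 79 differed by at least 2-fold (0.472%), 36 higher (0.215%) and 43 lower (0.257%). The called probe sets stood for 363 genes, of which 56 carried a symbol, 33 higher and 23 lower, and 307 a locus code only. Without adjustment 2690 probe sets (16.1%) had a p under 0.05, and in 3674 (21.9%) the 3 arrays of amp1-13 did not overlap with the 3 of wild type. The smallest adjusted p was 0.000472.

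The number of calls depended on single arrays. It was 433, 88 and 305 when array 1, 2 or 3 of amp1-13 was omitted, and 76, 68 and 122 when array 1, 2 or 3 of wild type was. At 2-fold or more the counts were 120, 49 and 102 on omitting these amp1-13 arrays in turn, and 42, 41 and 53 on omitting the wild-type ones. All 365 kept their sign in each of these 6 fits, 51 kept their call in all 6, and 72 in none. The kept signs carry little weight, since the probe sets were chosen on the same 6 arrays. Where the genotypes do not overlap, omitting an array cannot change the sign. Among the 56 genes with a symbol, 10 kept their call in all 6: CLV3, YUC4, EXLA2, SFP2, ACT11, ATC, QQS, scpl22, SD1-29 and PRN. The arrays whose omission cost most of the other calls among the 56 were array 2 of wild type (43 lost), array 1 of wild type (42) and array 2 of amp1-13 (37). Omitting array 3 of wild type lost 30, array 3 of amp1-13 18 and array 1 of amp1-13 13. When the spread was estimated over all 12 arrays, limma called 46 probe sets for the same differences, among them 7 of the 56 genes with a symbol (GH3.17, SRS3, CLV3, IDL4, iqd21, MCCB and SCPL34). YUC4, ATC, QQS and NRT2.5 were not called in that fit (adjusted p = 0.116, 0.0838, 0.0984 and 0.0838), which included array 1 of wild type in DMSO, an array apart from its group, and without that array limma called 555.

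**Figure D1:**
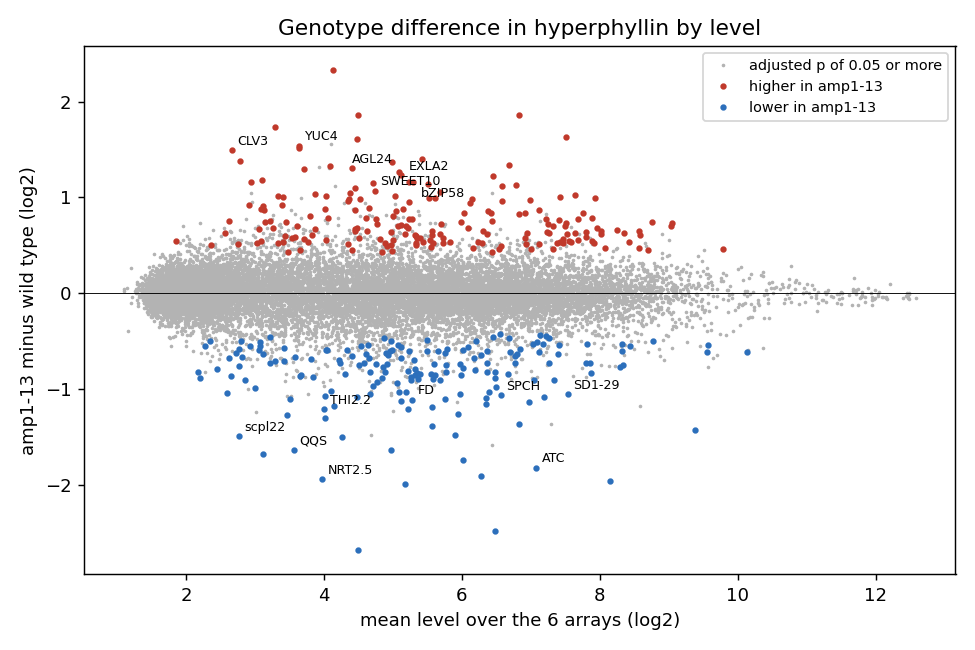
Difference of amp1-13 minus wild type in hyperphyllin (log2, vertical) against the mean level over the 6 arrays (log2, horizontal), 1 point per tested probe set, with the 191 higher and 174 lower calls in colour. Calls were few among the 5582 dimmest probe sets (11) and the differences ran from -2.68 to 2.33.

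Among shoot meristem genes the largest difference was in CLV3, the secreted peptide that limits the stem cell population of the shoot apex. CLV3 was at 3.74, 3.18 and 3.32 in amp1-13, against 1.71, 1.90 and 2.15 in wild type (log2 level). Every amp1-13 array lay above every wild-type array, and the smallest gap was between array 2 of amp1-13 and array 3 of wild type. The difference was 1.49 ± 0.17 (SE, log2 scale, 3 arrays in each group, adjusted p = 0.00683 by limma), a call kept in all 6 fits with an array omitted. CLV3 was dim in both genotypes, below the median of every array. LAS, a GRAS regulator of axillary meristem formation, was at 3.30, 3.16 and 3.15 in amp1-13 and at 2.80, 2.54 and 2.75 in wild type, without overlap. Its difference of 0.50 ± 0.10 missed the threshold (adjusted p = 0.0515). CLV3 and LAS were also the only measured shoot apex markers of 7 written, and their summed linear level was 18.0 to 23.2 in amp1-13 and 9.56 to 11.2 in wild type. In whole seedlings more cells of a type and more RNA per cell cannot be told apart.

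Flowering-time regulators with meristem functions differed in both directions. AGL24, a MADS-box promoter of flowering, was at 6.12, 5.38 and 5.65 in amp1-13, against 4.31, 4.75 and 4.30 in wild type. The groups did not overlap, and the difference was 1.27 ± 0.20 (adjusted p = 0.0209). FD, the bZIP partner of the flowering signal FT, was at 4.88, 4.36 and 4.94 in amp1-13, against 5.98, 5.91 and 5.61 in wild type. All amp1-13 arrays were below all wild-type arrays, with a difference of -1.11 ± 0.17 (adjusted p = 0.0192). ATC, a relative of the floral repressor TFL1, was at 6.12, 6.09 and 6.30 in amp1-13, against 7.84, 8.03 and 8.09 in wild type. The spread within each genotype was small beside the difference of -1.82 ± 0.11, which shared the smallest adjusted p of the comparison (0.000472) with AT4G12870 and AT1G51805. The call of ATC held in all 6 fits with 1 array left out, while AGL24 lost it without arrays 1 or 3 of wild type (adjusted p up to 0.0863) and FD without arrays 1 or 2 of wild type (up to 0.0912).

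Of 10 measured genes in the list of shoot meristem and organ boundary genes, 2 were called higher (CLV3, AGL24) and 1 lower (FD), where 1.14% of all tested probe sets were called higher and 1.04% lower. Their median difference was 0.32, against 0.00 over all probe sets tested, and 7 of the 10 means were above 0. LOB, a boundary gene, was at 0.46 ± 0.10 (adjusted p = 0.0528), and the peptide gene CLE44 at -0.56 ± 0.20 (adjusted p = 0.208). UFO and CLE40 were at 0.14 ± 0.16 and -0.03 ± 0.12.

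Among auxin genes, YUC4, a flavin monooxygenase of auxin synthesis, was at 4.57, 4.37 and 4.30 in amp1-13, against 2.7, 3.2 and 2.8 in wild type. The groups were separated by more than the range within either of them, and the difference was 1.54 ± 0.14 (adjusted p = 0.00472). The call held in all 6 fits with 1 array left out. Its paralogues YUC2 and YUC6 were at -0.24 ± 0.20 and -0.29 ± 0.12 and were not called.

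Enzymes of the GH3 family, which conjugate auxin to amino acids, moved in opposite directions. GH3.17 was at 7.84, 7.70 and 7.82 in amp1-13, against 7.09, 6.84 and 7.16 in wild type, and was 0.76 ± 0.11 higher (adjusted p = 0.0161). GH3.1 was at 4.94, 5.33 and 5.27 in amp1-13, against 6.03, 6.05 and 6.01 in wild type, and its difference was -0.85 ± 0.12 (adjusted p = 0.0146). Neither gene overlapped between the genotypes. GH3.17 lost its call without array 2 of amp1-13 or arrays 1 or 2 of wild type (adjusted p up to 0.0676), and GH3.1 without array 1, 2 or 3 of wild type (up to 0.0741). WES1, GH3.3, GH3.4 and GH3.9 were at -0.51 ± 0.13, -0.20 ± 0.13, 0.02 ± 0.10 and 0.62 ± 0.19 and were not called.

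In all, 2 of 21 measured genes of auxin response and conjugation were called higher and 1 lower, with a median of -0.01, beside 1.14% and 1.04% of all tested probe sets. The Aux/IAA repressor gene IAA29 was at -0.66 ± 0.31 (adjusted p = 0.343) and LBD29, a lateral organ boundary gene of root branching, at -0.31 ± 0.29 (adjusted p = 0.651). HAT2, a homeobox gene of auxin and shade response, was at 0.58 ± 0.13 (adjusted p = 0.0597). The 7 measured cytokinin genes had a median of -0.02 and no call. The response regulator genes ARR15 and RR16 were at 0.68 ± 0.29 (adjusted p = 0.294) and 0.07 ± 0.30 (adjusted p = 0.937).

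A run of neighbouring glutaredoxin genes on chromosome 4 was among the largest differences. CC-type glutaredoxins are small plant-specific redox proteins, and several of this run are known to respond to nitrate and cytokinin. AT4G15680 was at 5.72, 5.47 and 5.07 in amp1-13, against 3.27, 3.84 and 3.57 in wild type. It was 1.86 ± 0.19 higher in amp1-13 (adjusted p = 0.00623), and no arrays overlapped. AT4G15700 was at 5.60, 5.09 and 5.15 in amp1-13, against 3.54, 3.74 and 3.74 in wild type, a difference of 1.61 ± 0.15 (adjusted p = 0.00472). AT4G15660 was at 4.68, 4.41 and 4.12 in amp1-13, against 3.2, 2.8 and 2.7 in wild type, a difference of 1.52 ± 0.17 (adjusted p = 0.00683). These 3 kept their call in all 6 fits with 1 array left out.

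The other 2 genes of the run varied more among the amp1-13 arrays. AT4G15690 was at 3.99, 3.60 and 2.85 in amp1-13, against 2.06, 2.20 and 2.05 in wild type, and was 1.38 ± 0.25 higher (adjusted p = 0.0324). Array 3 of amp1-13 was the lowest of its group and still above wild type, and the call was lost without array 2 of amp1-13 or array 1, 2 or 3 of wild type (adjusted p up to 0.124). AT4G15670 was at 5.14, 3.81 and 4.83 in amp1-13, against 3.40, 3.54 and 2.87 in wild type. Array 2 of amp1-13 came close to the wild-type arrays, and the difference of 1.32 ± 0.32 was not called (adjusted p = 0.0788), though it was without array 2 of amp1-13. The 5 genes are close copies, and it was not determined if the probes distinguish them.

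Outside the run the family did not move in a single direction. Of 20 measured CC-type glutaredoxin genes, the run included, 5 were called higher and 2 lower, beside 1.14% and 1.04% of all tested. The median of the 20 was 0.16. The only higher call outside the run was AT5G18600, 0.65 ± 0.10 higher (adjusted p = 0.0209). Both lower calls were outside the run, AT1G03020 at -1.09 ± 0.14 (adjusted p = 0.0101) and AT4G33040 at -0.59 ± 0.09 (adjusted p = 0.0209). The anther and petal regulator ROXY1 was at 0.41 ± 0.10 (adjusted p = 0.0697), and GRX480, which interacts with TGA factors, at -0.23 ± 0.25 (adjusted p = 0.718).

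**Figure D2:**
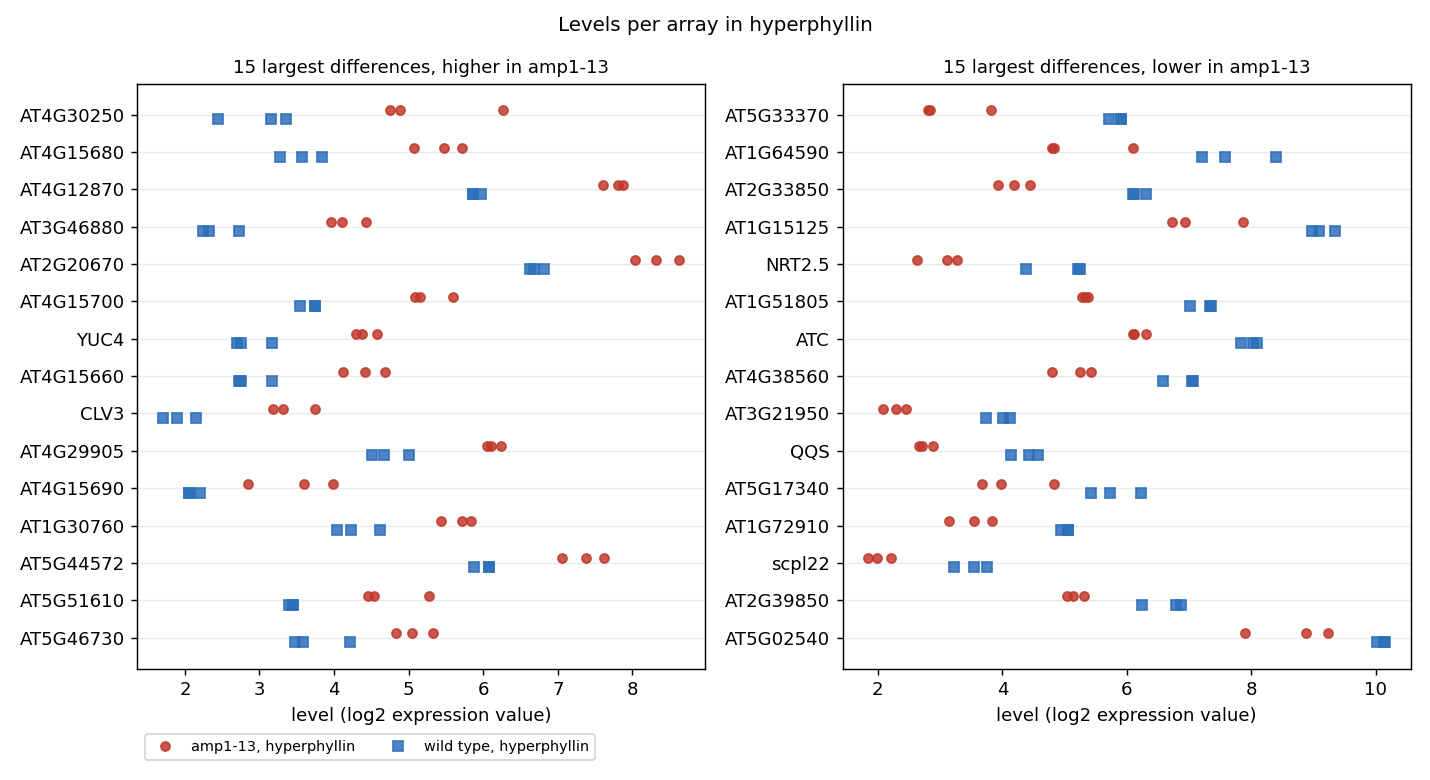
Log2 level on each array for the 15 genes with the largest positive and the 15 with the largest negative difference among calls, circles for the 3 amp1-13 arrays and squares for the 3 wild-type arrays in hyperphyllin. No gene overlaps between the genotypes, which the choice of genes required, and the distance within a genotype is widest in amp1-13 for AT4G30250 (4.75 to 6.27).

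SPCH, the bHLH factor that starts the stomatal lineage, was lower in amp1-13. It was at 5.69, 6.10 and 6.32 in amp1-13, against 7.02, 7.40 and 6.89 in wild type. The groups did not overlap, and the difference was -1.06 ± 0.18 (adjusted p = 0.0300). The call was lost without array 2 of amp1-13 or array 1, 2 or 3 of wild type (adjusted p up to 0.107). The later lineage factors were not called: MUTE was at -0.45 ± 0.15 (adjusted p = 0.192), and FMA, also known as FAMA, at -0.65 ± 0.14 (adjusted p = 0.0576). FMA, the only measured guard cell marker of 6 written, had a linear level of 72.8 to 105 in amp1-13 and 127 to 135 in wild type. BLUS1 (AT4G14480), a kinase of blue-light stomatal opening named through RefSeq after its values were seen, was at -0.73 ± 0.10 (adjusted p = 0.0136). Its call was lost without array 2 of amp1-13 or array 1 or 2 of wild type (adjusted p up to 0.067). The peptide gene STOMAGEN was at 0.08 ± 0.09. Of 7 measured stomatal genes 1 was called, SPCH, beside 1.04% of all tested probe sets called lower. The median of the 7 was -0.12, and the part of cell numbers in it was not tested.

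Calls with a symbol included 5 genes known from organ growth, leaf form or vein development, of which 1 (ROT4) is in the list written for leaf polarity, growth and phase. Where genes are grouped here without a written list, they were gathered from the calls and their grouping carries no test. ROT4, a small peptide that restricts growth along the leaf axis when overproduced, was at 4.80, 4.44 and 4.13 in amp1-13, against 3.52, 3.75 and 3.46 in wild type. Array 3 of amp1-13 stood nearest to wild type, and the difference was 0.88 ± 0.17 (adjusted p = 0.0430). Its relative RTFL13 was 0.56 ± 0.11 higher (adjusted p = 0.0418). NUB, a zinc-finger gene of lateral organ growth, was 0.75 ± 0.11 higher (adjusted p = 0.0161), at 3.61, 3.60 and 3.60 in amp1-13 against 3.03, 2.86 and 2.67 in wild type. SRS3, of the SHI-related family of organ regulators, was 0.82 lower on the log2 scale with very low levels, 1.65, 1.79 and 1.84 in amp1-13 against 2.45, 2.50 and 2.79 in wild type (difference -0.82 ± 0.12, adjusted p = 0.0152). OPS, a regulator of phloem differentiation, was 0.50 ± 0.10 higher (adjusted p = 0.0479).

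ROT4 lost its call without array 2 of amp1-13 or any wild-type array, NUB and SRS3 without array 2 of amp1-13 or array 2 of wild type, and RTFL13 and OPS whichever of the 6 was left out. Of 9 measured genes of leaf polarity, growth and phase, ROT4 was the only call, beside 1.14% of all tested probe sets called higher. The median of the 9 was 0.03. The leaf polarity gene PHV was at 0.44 ± 0.12 (adjusted p = 0.113) and the floral repressor SNZ at -0.75 ± 0.21 (adjusted p = 0.113). YAB2, YAB3 and YAB5 were at 0.34 ± 0.12, 0.00 ± 0.09 and -0.08 ± 0.10.

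IDL4, a member of the family of IDA-like signalling peptides, was higher in amp1-13. It was at 4.62, 5.02 and 4.85 in amp1-13, against 3.76, 3.84 and 4.01 in wild type. The difference was 0.96 ± 0.13 (adjusted p = 0.0115) with no overlap, and it lost its call without array 1 or 2 of wild type (adjusted p up to 0.0618).

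Genes of cell division that were called were higher in amp1-13. PRL, the PROLIFERA subunit of the MCM helicase, was at 6.76, 6.79 and 6.75 in amp1-13, against 6.38, 6.21 and 6.33 in wild type. The 3 amp1-13 arrays were nearly equal, and the difference was 0.46 ± 0.09 (adjusted p = 0.0443). AUR1, an Aurora kinase of mitosis, was at 6.20, 6.41 and 6.48 in amp1-13, against 5.67, 5.86 and 5.32 in wild type, 0.74 ± 0.15 higher (adjusted p = 0.0474). Haspin, a mitotic kinase of histone H3, was 0.65 ± 0.12 higher (adjusted p = 0.0327). HTR12, the centromeric histone H3, was at 0.60 ± 0.12 and just missed the threshold (adjusted p = 0.0504).

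Of 8 measured cell cycle genes 2 were called, both higher, beside 1.14% of all tested probe sets called higher. The median of the 8 was 0.34. AUR2 and AUR3, the other Aurora kinases, were at 0.21 ± 0.10 and -0.03 ± 0.13. SIM, an inhibitor of cyclin-dependent kinases that promotes endoreduplication, was at -0.35 ± 0.16 (adjusted p = 0.338). These calls were thin: PRL was lost whichever of the 6 arrays was left out, and AUR1 was kept only without array 1 of amp1-13 and Haspin only without array 3 of amp1-13.

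Cell wall genes with a symbol that were called were all higher in amp1-13. EXLA2, an expansin-like gene, was at 5.87, 5.57 and 5.79 in amp1-13, against 4.43, 4.37 and 4.74 in wild type. The genotypes were apart by more than the range of either, and the difference was 1.23 ± 0.13 (adjusted p = 0.00623). The xyloglucan endotransglucosylase genes XTH33 and XTH16 were 0.78 ± 0.11 (adjusted p = 0.0160) and 0.62 ± 0.09 higher (adjusted p = 0.0192). TBL37, of a family of polysaccharide acetyltransferases, was 0.84 ± 0.12 higher (adjusted p = 0.0175).

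SKU5, a glycosylphosphatidylinositol-anchored protein of directional root growth, was 0.63 ± 0.11 higher (adjusted p = 0.0266). The pectin methylesterase gene PMEPCRF was 0.53 ± 0.10 higher (adjusted p = 0.0372). The actin gene ACT11 was at 5.68, 5.45 and 5.65 in amp1-13, against 4.63, 4.73 and 4.78 in wild type, 0.88 ± 0.10 higher (adjusted p = 0.00814). EXLA2 and ACT11 kept their call in all 6 fits, and the other 5 lost it without at least 3 of the 6 arrays. In the cell wall list, 2 of 34 measured genes were called higher (XTH16, XTH33), beside 1.14% of all tested probe sets. The median of the list was 0.04 with 18 means above 0 and 16 below.

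Genes of nitrate transport were called in both directions. NRT2.5, a high-affinity nitrate transporter known from nitrogen-starved plants, was at 2.63, 3.11 and 3.27 in amp1-13, against 5.24, 5.22 and 4.38 in wild type. Array 3 of wild type was the lowest of its group and still above amp1-13, and the difference was -1.94 ± 0.25 (adjusted p = 0.0114). NAXT1, a nitrate efflux transporter, was at 7.99, 7.92 and 7.82 in amp1-13, against 8.68, 8.76 and 8.61 in wild type, with a difference of -0.77 ± 0.09 (adjusted p = 0.00938). NRT2.5 lost its call without array 1 or 2 of wild type (adjusted p up to 0.0574) and NAXT1 without array 2 of wild type (0.0572). The other direction was taken by NPF6.2 (AT2G26690) and NPF6.4 (AT3G21670), nitrate transporters of the NRT1/PTR family that carry a locus code in the annotation and were named through RefSeq after their values were seen. NPF6.2 was at 9.28, 9.12 and 9.01 in amp1-13, against 8.44, 8.37 and 8.36 in wild type, 0.74 ± 0.10 higher (adjusted p = 0.0131). NPF6.4 was at 5.04, 5.25 and 4.44 in amp1-13, against 3.89, 3.85 and 3.83 in wild type, 1.05 ± 0.19 higher (adjusted p = 0.0324). The call of NPF6.2 was lost without array 2 of amp1-13 or array 1 or 2 of wild type (adjusted p up to 0.0700), and that of NPF6.4 was kept only without array 3 of amp1-13. NRT2.5 was the only measured gene of 60 written for nitrate and nitrogen response, so the list cannot describe that pathway.

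QQS, a gene found only in Arabidopsis that affects the balance of starch and protein, was lower in amp1-13. It was at 2.66, 2.71 and 2.88 in amp1-13, against 4.14, 4.43 and 4.58 in wild type. The difference was -1.63 ± 0.13 (adjusted p = 0.00301), and the call held in all 6 fits. Starch enzymes also gave lower calls: APL4, a large subunit of ADP-glucose pyrophosphorylase, was at -0.65 ± 0.12 (adjusted p = 0.0346). DPE1, the plastid disproportionating enzyme of starch metabolism, was at -0.45 ± 0.09 (adjusted p = 0.0443). Both starch calls were fragile, since DPE1 was lost whichever of the 6 arrays was left out and APL4 kept only without array 3 of wild type.

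Sugar transporter genes were called in the other direction. SFP2, a sugar porter of the ERD6-like family, was at 6.79, 6.62 and 6.49 in amp1-13, against 5.70, 5.65 and 5.62 in wild type. It was 0.98 ± 0.10 higher (adjusted p = 0.00623) and kept its call in all 6 fits. Its neighbour and close copy SFP1 was 0.45 ± 0.09 higher (adjusted p = 0.0449), a call that was lost whichever of the 6 arrays was left out. SWEET10, a sugar exporter, was at 5.06, 5.36 and 5.41 in amp1-13, against 4.34, 4.37 and 3.92 in wild type, 1.07 ± 0.15 higher (adjusted p = 0.0152). SWEET3 was 0.55 ± 0.09 higher at very low levels (adjusted p = 0.0290). SWEET2 and SWEET16 were at 0.81 ± 0.19 (adjusted p = 0.0678) and 0.52 ± 0.14 (adjusted p = 0.102), and SWEET1 at -0.37 ± 0.12 (adjusted p = 0.156).

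Called enzymes of amino acid breakdown were higher in amp1-13. MCCB, a subunit of methylcrotonyl-CoA carboxylase, was at 7.86, 7.92 and 7.76 in amp1-13, against 7.37, 7.31 and 7.24 in wild type, 0.54 ± 0.09 higher (adjusted p = 0.0290). ETFQO, which passes electrons from this breakdown to the respiratory chain, was 0.54 ± 0.10 higher (adjusted p = 0.0436). The lysine-degrading enzyme LKR/SDH (AT4G33150), also named through RefSeq, was 0.46 ± 0.09 higher (adjusted p = 0.0478), a call that no fit with 1 array left out kept. D2HGDH, which feeds the same electron chain, was at -0.07 ± 0.08. Of 19 measured genes of sugar starvation and senescence, 4 were called higher (SFP2, MCCB, ETFQO, SFP1) and 1 lower (APL4), with a median of 0.19. Of all tested probe sets 1.14% were called higher and 1.04% lower. ETFQO was lost whichever of the 6 arrays was left out and MCCB without array 2 of amp1-13 or array 1, 2 or 3 of wild type.

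Genes of secreted and vacuolar proteases were called in both directions. Of the serine carboxypeptidase-like genes, SCPL34 was at 7.80, 7.88 and 7.86 in amp1-13, against 7.16, 7.09 and 7.18 in wild type, 0.70 ± 0.09 higher (adjusted p = 0.00938). The smaller difference of scpl46 was 0.53 ± 0.08 (adjusted p = 0.0214). In contrast scpl22 was at 2.21, 1.99 and 1.85 in amp1-13, against 3.54, 3.23 and 3.76 in wild type, with a difference of -1.49 ± 0.15 (adjusted p = 0.00623) that held in all 6 fits. SCPL34 lost its call only without array 2 of wild type (adjusted p = 0.0572). Among calls with a symbol, the subtilase genes SBT4.12 and ATSBT5.2 were 0.99 ± 0.16 (adjusted p = 0.0254) and 0.58 ± 0.11 higher (adjusted p = 0.0346). They were lost without 4 and 5 of the 6 arrays. Calls with a locus code only were not assigned to these protease families, so the direction of the families as a whole is not described.

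Other calls with a symbol included regulators of transcription and signalling. Among bZIP factors, bZIP58 was 1.16 ± 0.19 higher (adjusted p = 0.0254) and bZIP44 at -0.61 ± 0.10 (adjusted p = 0.0234). The IQ-domain genes IQD22 and iqd21, which bind calmodulin, were at -0.82 ± 0.13 (adjusted p = 0.0209) and -0.64 ± 0.11 (adjusted p = 0.0290). SD1-29, a receptor-like kinase gene, was at 7.05, 6.84 and 7.12 in amp1-13, against 7.92, 8.17 and 8.08 in wild type. Its difference of -1.05 ± 0.11 (adjusted p = 0.00623) held in all 6 fits. The RING-finger gene ATL63 was at -0.97 ± 0.17 (adjusted p = 0.0290).

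Genes of stress and metabolism were called in both directions. THI2.2, a thionin of defence, was at 3.49, 3.43 and 3.26 in amp1-13, against 4.90, 4.73 and 4.20 in wild type. The difference was -1.21 ± 0.17 (adjusted p = 0.0160), and the call was lost without array 2 of amp1-13 or array 1 or 2 of wild type (adjusted p up to 0.0810). The pirin gene PRN was at -0.80 ± 0.10 (adjusted p = 0.00973) and kept its call in all 6 fits. SAL2 (-0.90 ± 0.15), the glycosyltransferase genes UGT73B2 (-0.86 ± 0.17) and UGT72B3 (-0.60 ± 0.12) and the acyl-activating gene AAE16 (-0.61 ± 0.11) were also called lower. Higher calls were MSRB9, a methionine sulfoxide reductase gene (0.62 ± 0.10), AOR, an alkenal reductase of the chloroplast (0.59 ± 0.10), and the thaumatin-like gene ATLP-1 (0.68 ± 0.12). MIR162A, whose miRNA targets the processing enzyme DCL1, had a probe set at -0.84 ± 0.16 (adjusted p = 0.0442). That probe set reads the transcript of the gene and not the mature miRNA.

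Most of the largest differences were in genes known here only by a locus code, for which no role is given. AT4G30250 was at 6.27, 4.89 and 4.75 in amp1-13, against 3.35, 3.15 and 2.44 in wild type, and was 2.33 ± 0.39 higher (adjusted p = 0.0279). Array 1 of amp1-13 stood above the rest of its group, and the call was lost without array 2 of amp1-13 or any wild-type array. AT4G12870 was at 7.88, 7.80 and 7.60 in amp1-13, against 5.97, 5.86 and 5.86 in wild type, 1.86 ± 0.10 higher (adjusted p = 0.000472). AT3G46880 was at 3.96, 4.11 and 4.43 in amp1-13, against 2.24, 2.72 and 2.32 in wild type, 1.74 ± 0.16 higher (adjusted p = 0.00474). Both kept their call in all 6 fits with 1 array left out. AT2G20670 was at 8.04, 8.32 and 8.63 in amp1-13, against 6.68, 6.81 and 6.62 in wild type, 1.63 ± 0.15 higher (adjusted p = 0.00472).

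Lower in amp1-13, AT5G33370 gave the largest difference of the comparison. It was at 2.84, 2.80 and 3.82 in amp1-13, against 5.90, 5.71 and 5.90 in wild type, a difference of -2.68 ± 0.25 (adjusted p = 0.00472). Array 3 of amp1-13 was about 1 log2 unit above the other amp1-13 arrays, and the call held in all 6 fits. AT1G51805 was at 5.28, 5.32 and 5.37 in amp1-13, against 7.02, 7.33 and 7.35 in wild type, with a difference of -1.91 ± 0.11 (adjusted p = 0.000472). AT2G33850 was at 4.18, 3.93 and 4.44 in amp1-13, against 6.09, 6.12 and 6.30 in wild type, with a difference of -1.99 ± 0.14 (adjusted p = 0.00139). AT1G64590 had a difference of -2.48 ± 0.39 (adjusted p = 0.0209), with array 3 of amp1-13 at 6.09, above the other amp1-13 arrays at 4.83 and 4.79. Of the 30 genes with the largest differences, 15 in each direction, 20 kept their call in all 6 fits.

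Genes on either side of the threshold differed little from each other. The first genes past it without a call were AT1G16170 (0.61 ± 0.13, adjusted p = 0.0500), HTR12 and AT4G15890 (0.51 ± 0.11, adjusted p = 0.0504) on the higher side. On the lower side they were AT3G57680 (-0.52 ± 0.11), AT1G16670 (-0.50 ± 0.10) and BGLU43 (-0.44 ± 0.09), each with an adjusted p of 0.0504. Just inside stood AT4G31310 at -0.42 (adjusted p = 0.0499), and, among genes with a symbol, UGT73B2 (0.0491) and UGT72B3 (0.0488).

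Other lists were close to the median of all genes and gave no call. The 17 measured photosynthesis and chlorophyll genes had a median of 0.02, with PORB, a protochlorophyllide oxidoreductase, at -0.70 ± 0.15 (adjusted p = 0.0528) and LHCB4.1 of the light-harvesting antenna at 0.02 ± 0.08. The 8 flavonoid and anthocyanin genes had a median of 0.08, with the anthocyanin enzyme DFR at -0.27 ± 0.22 (adjusted p = 0.616). The 10 genes of endoplasmic reticulum stress had a median of 0.10, with the chaperone gene BIP1 at 0.39 ± 0.10 (adjusted p = 0.106). The 12 jasmonate and wounding genes had a median of 0.04 and the 17 detoxification genes of -0.02. No gene of these 5 lists passed the test.

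The list of touch, cold and early stress genes had the lowest median of the 25 lists with at least 3 measured members, at -0.42, with 13 of 17 means below 0 and no call. The U-box ligase gene PUB23 was at 9.97, 9.03 and 8.92 in amp1-13, against 10.10, 9.99 and 9.85 in wild type. Array 1 of amp1-13 lay among the wild-type arrays, and the difference was -0.68 ± 0.25 (adjusted p = 0.230). STZ, a zinc-finger repressor of stress responses, was at -0.64 ± 0.30 (adjusted p = 0.347), and the cold genes COR15A and KIN1 at 0.00 ± 0.17 and 0.05 ± 0.20. The remaining lists of the 25 gave no call either, with medians between -0.26 and 0.16. Together 17 of the 25 lists had no call by limma, and 30 of their 136 measured members had an unadjusted p under 0.05, beside 16.1% of all tested probe sets.

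**Figure D3:**
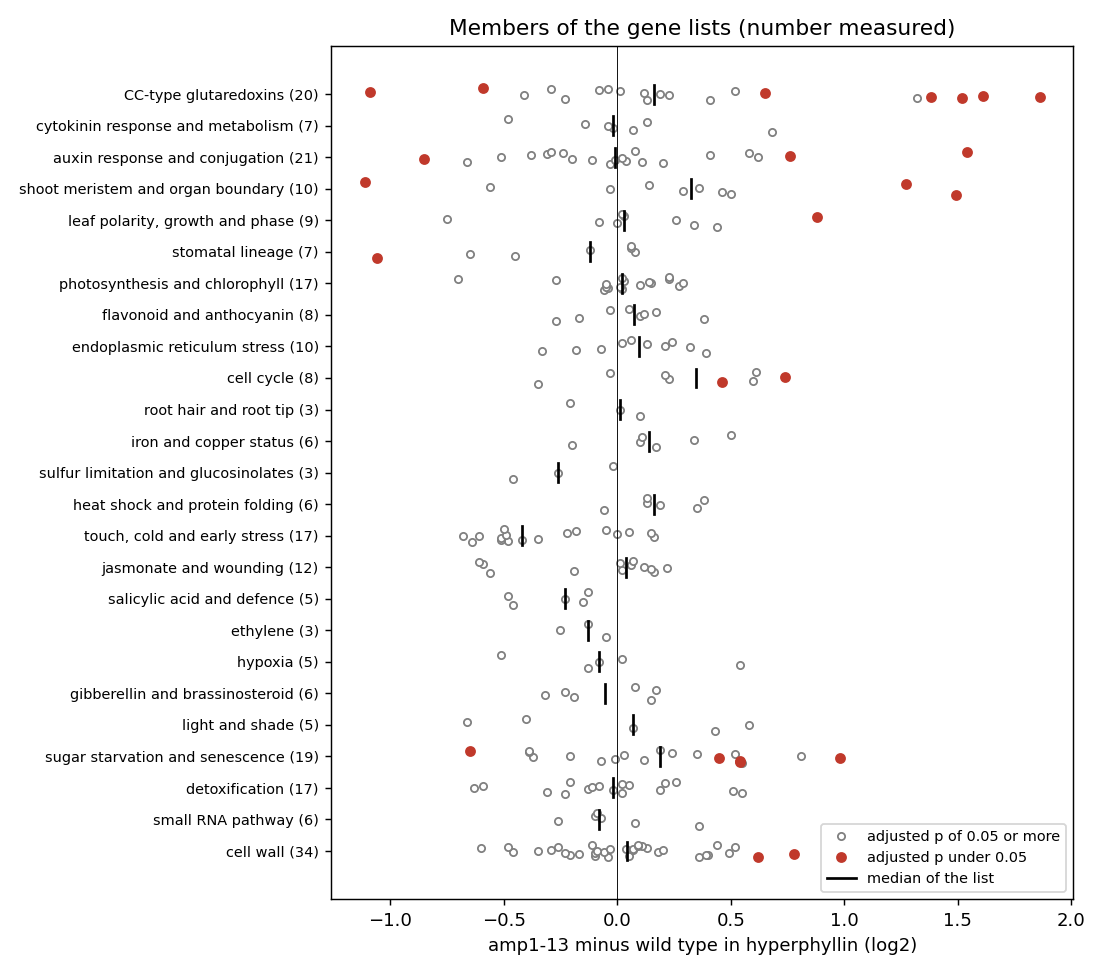
Difference of amp1-13 minus wild type in hyperphyllin (log2) for each measured member of the 25 lists with at least 3 measured genes, filled where the adjusted p was under 0.05, with the median of each list as a bar. The calls lie in 8 lists, among them the CC-type glutaredoxins with 5 higher and 2 lower, and the bar of the touch, cold and early stress list is at -0.42.

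The same contrast was available in DMSO on 6 arrays that the hyperphyllin comparison did not use. There array 1 of wild type went with amp1-13 rather than with its group: its mean correlation with arrays 2 and 3 of wild type was 0.972, against 0.988 with the amp1-13 arrays, and arrays 2 and 3 of wild type correlated at 0.993. Among the 365 probe sets called in hyperphyllin, its level was nearer to the amp1-13 mean than to the mean of arrays 2 and 3 of wild type in 294 (80.5%), and among all tested in 10295 (61.5%). Counts and the differences of named genes in DMSO are therefore also given without that array. In DMSO limma called 0 probe sets (0%), with 1764 (10.5%) at an unadjusted p under 0.05. Without array 1 of wild type it called 1855 (11.1%) at the adjusted threshold. That array was singled out by its likeness to amp1-13 in these same data, so omitting it tends to widen the DMSO difference. This limit applies to all values below that omit it, the interaction included.

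Of the 191 probe sets called higher in hyperphyllin, 179 (93.7%) also had a higher amp1-13 mean in DMSO, and of the 174 called lower, 135 (77.6%) had a lower one. Among all tested probe sets 57.7% had the same sign in both media. Without array 1 of wild type the shares were 94.2% and 82.2%, beside 60.4% of all tested. The median difference of the higher set was 0.70 in hyperphyllin and 0.53 in DMSO, and that of the lower set -0.75 and -0.35. Without array 1 of wild type the DMSO medians were 0.72 for the higher set and -0.55 for the lower set. Across the 365 probe sets the differences in the 2 media correlated with a Pearson r of 0.75, against 0.29 across all tested. Within the higher set r was 0.32 and within the lower set 0.33, so the pooled value rests on joining sets chosen for opposite signs. Without array 1 of wild type r was 0.8 across the 365 and 0.37 across all tested. Within the higher and lower sets it was then 0.38 and 0.42. This is a description over genes that share their arrays and, in the called set, were chosen for large differences.

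In DMSO the 3 arrays of each genotype did not overlap in 1160 of all tested probe sets with amp1-13 higher (6.93%) and in 1506 with amp1-13 lower (8.99%). Among the called probe sets 65 of 191 were higher without overlap in DMSO, and 18 of 174 lower, while 1 and 4 were separated in the opposite direction. The share of the higher calls was well above the 6.93% of all tested, but that of the lower calls was close to the 8.99%. Without array 1 of wild type these counts were 160 of 191 and 115 of 174, with 3 and 7 opposite. With fewer arrays separation is easier. Of all 16746 tested probe sets, 4910 were then separated in the direction of their hyperphyllin difference and 2158 in the opposite one.

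AT4G12870, FD and SFP2 differed in the same direction in both media. AT4G12870 was at 7.40, 7.31 and 7.41 in amp1-13 in DMSO, against 7.38, 4.51 and 4.05 in wild type. Array 1 of wild type was at the amp1-13 level there, and the difference in DMSO was 2.06, or 3.10 without that array. FD was at -1.10 in DMSO (-1.31 without that array), beside -1.11 in hyperphyllin. SFP2 was at 1.24 in DMSO (1.69 without that array), beside 0.98. AT4G15700 was at 3.28, 2.89 and 3.42 in amp1-13 in DMSO, against 1.86, 1.52 and 1.65 in wild type. Here array 1 of wild type stayed with its group, and the difference was 1.52 (1.62 without it), beside 1.61 in hyperphyllin.

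CLV3 and YUC4 had small differences in DMSO. CLV3 was at 2.20, 2.55 and 2.37 in amp1-13 in DMSO, against 3.02, 1.98 and 1.80 in wild type, a difference of 0.11. YUC4 was at 3.57, 3.41 and 3.51 in amp1-13 in DMSO, against 4.41, 2.61 and 2.67 in wild type, a difference of 0.27. In both genes array 1 of wild type was the highest of the DMSO arrays, and without it the differences were 0.48 for CLV3 and 0.86 for YUC4. ATC was at -0.21 in DMSO and SPCH at -0.10, and without that array at -0.80 and 0.22.

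**Figure D4:**
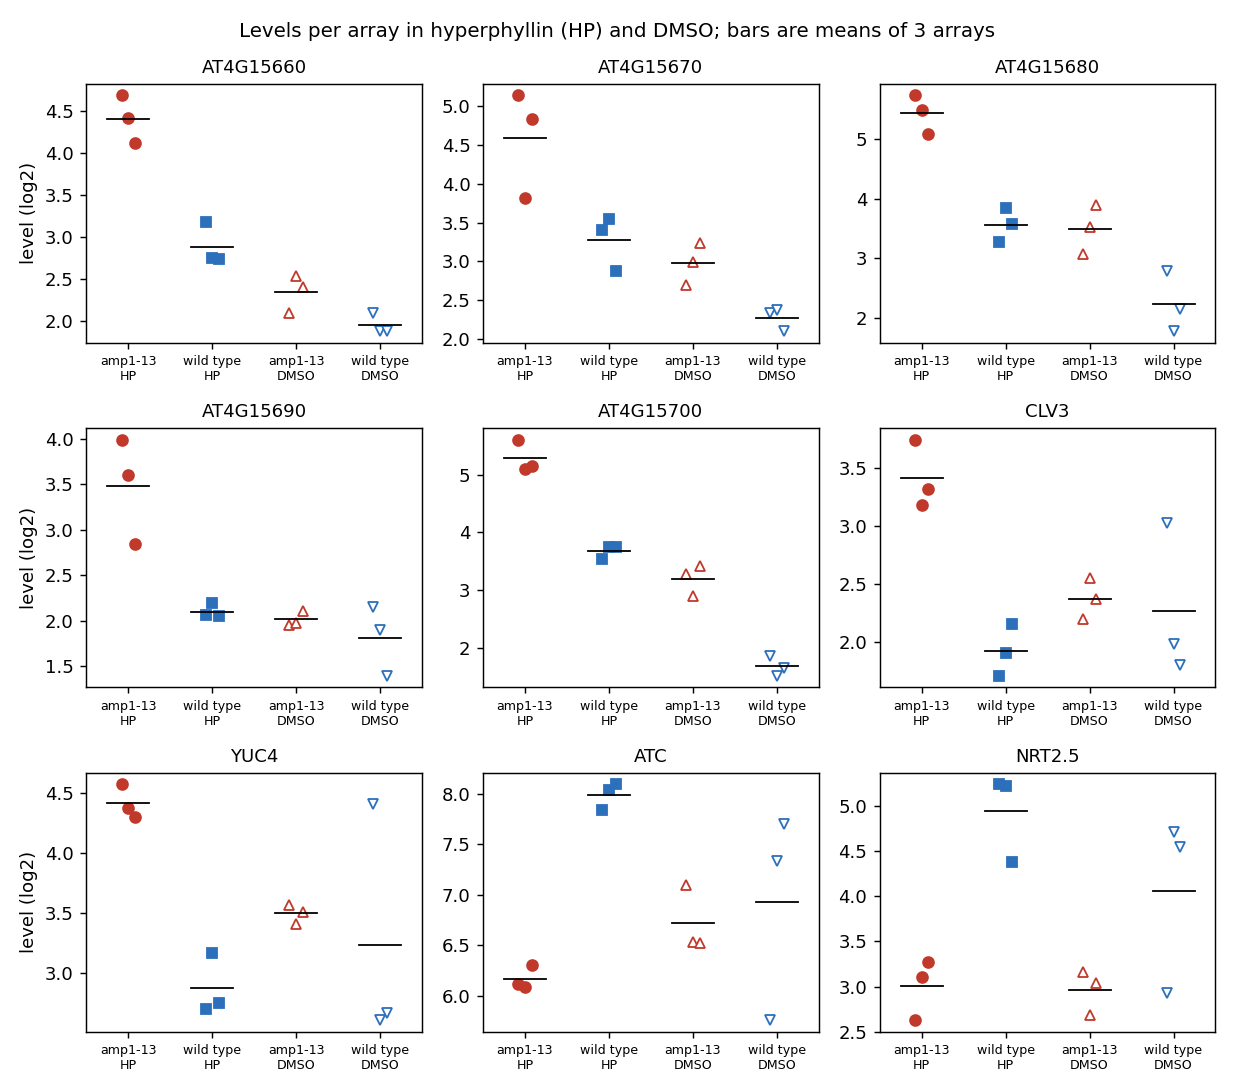
Log2 level on each array in amp1-13 and wild type with hyperphyllin (HP, filled) and with DMSO (open) for the 5 glutaredoxin genes of the chromosome 4 run, CLV3, YUC4, ATC and NRT2.5, with bars at the mean of 3 arrays. In CLV3, YUC4, ATC and NRT2.5 the first wild-type DMSO array lies away from the other wild-type DMSO arrays, while in the glutaredoxin run the hyperphyllin arrays of amp1-13 are highest throughout.

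Whether the genotype difference itself differed between the media was tested with the interaction over all 12 arrays. Limma called 0 probe sets (0%), the lowest adjusted p was 0.122, and 1386 (8.28%) had an unadjusted p under 0.05. Without array 1 of wild type in DMSO 464 were called (2.77%). The interaction was 1.24 for IDL4 (adjusted p = 0.122), whose difference was 0.96 in hyperphyllin and -0.27 in DMSO (-0.24 without that array). It was 1.38 for CLV3 (adjusted p = 0.361), 1.27 for YUC4 (adjusted p = 0.549), 0.71 for GH3.17 (adjusted p = 0.284) and -0.96 for SPCH (adjusted p = 0.547). For AT4G15700 and FD it was 0.08 and -0.01. None of these passed with all 12 arrays, and a p above the threshold does not show that the media gave the same difference. Without array 1 of wild type in DMSO the interaction passed for IDL4 (1.20, adjusted p = 0.00782), GH3.17 (0.75, adjusted p = 0.0453), SPCH (-1.29, adjusted p = 0.0475) and CLV3 (1.01, adjusted p = 0.0479). For YUC4 it was 0.68 (adjusted p = 0.0895). Other described genes passed too, among them ATC (-1.02) and AT4G15660 (1.06), both with an adjusted p of 0.0452. Some passed with the larger difference in DMSO. Examples were GH3.1 (-2.30 in DMSO without that array, -0.85 in hyperphyllin, adjusted p = 0.00363) and AT4G12870 (3.10 and 1.86, adjusted p = 0.0089). XTH16 was a further example (1.35 and 0.62, adjusted p = 0.0475).

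The 5 called probe sets that were separated in the opposite direction in DMSO were IDL4, AT1G72910, AT1G76960, AT4G01130 and AT5G12340. They are named after their values were seen. IDL4 was at 4.60, 4.56 and 4.69 in amp1-13 in DMSO, against 4.96, 4.79 and 4.92 in wild type. AT1G72910 was at 3.84, 3.55 and 3.15 in amp1-13 in hyperphyllin, against 5.05, 5.06 and 4.94 in wild type, and at 3.2, 5.2 and 3.2 in amp1-13 in DMSO, against 3.05, 2.70 and 2.43 in wild type. Array 2 of amp1-13 in DMSO was far above its group in that gene. AT4G01130 had differences of -0.67 in hyperphyllin and 0.44 in DMSO.

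Beside these values stand the changes with the compound within each genotype, which share the hyperphyllin arrays and so are not independent of the comparison. The wild-type values are also given without array 1 of DMSO. AT4G15660 was 2.06 higher with hyperphyllin than with DMSO in amp1-13 and 0.94 higher in wild type (1.00 without that array). AT4G15700 was 2.08 higher in amp1-13 and 2.00 higher in wild type (2.09 without that array). CLV3 was 1.04 higher in amp1-13 and at -0.34 in wild type, but at 0.03 without that array. IDL4 was at 0.22 in amp1-13 and at -1.02 in wild type (-0.98 without that array), and GH3.17 at -0.10 in amp1-13 and at -0.81 in wild type (-0.85 without that array).

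**Figure D5:**
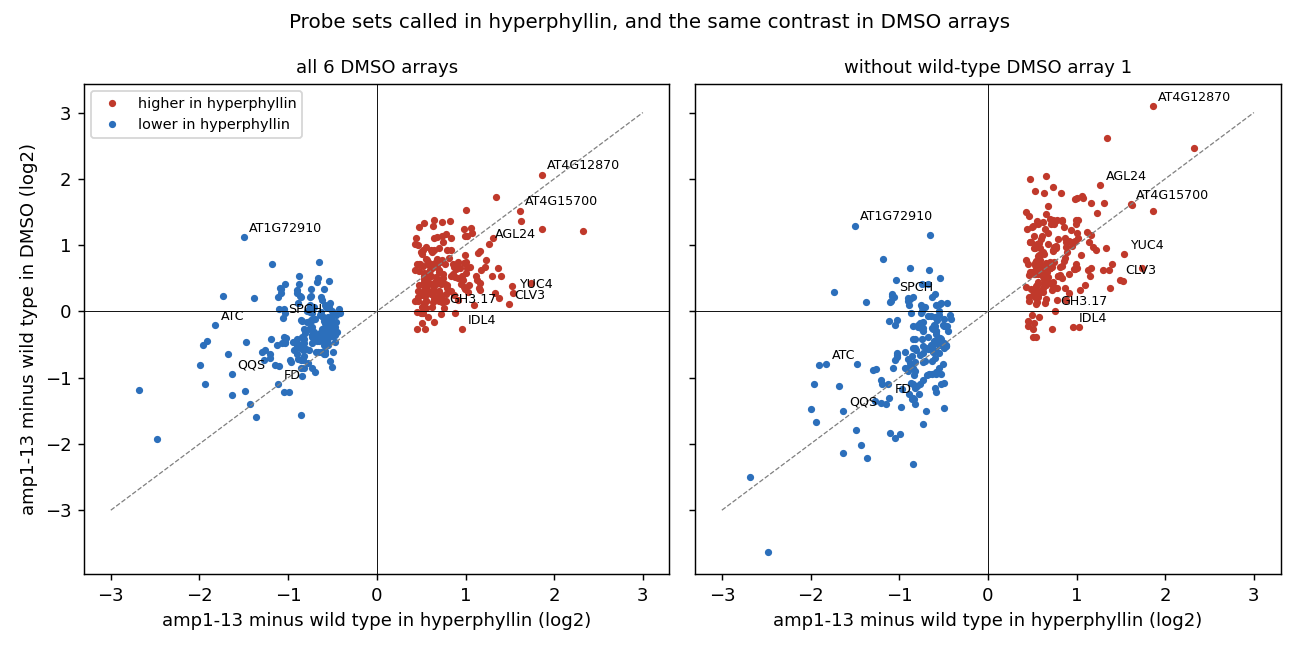
Difference of amp1-13 minus wild type in hyperphyllin (log2, horizontal) and in DMSO (log2, vertical) for the 365 probe sets called in hyperphyllin, with all 6 DMSO arrays on the left and without array 1 of wild type on the right. Of the 365, 314 have the same sign on the left and 323 on the right, and the dashed line marks equal differences.

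Calls were spread over the nuclear chromosomes, by the gene positions of RefSeq assembly TAIR10.1. They made up 2.26% of tested probe sets on chromosome 1, 1.83% on chromosome 2, 2.1% on chromosome 3, 2.92% on chromosome 4 and 1.89% on chromosome 5. None of the 63 probe sets of the plastid genome was called. Among 10315 pairs of adjacent tested genes, both members were called in 9, each time in the same direction. These pairs included 2 in the glutaredoxin run, SFP1 with SFP2, and AT1G24140 (-1.04) with AT1G24145 (-1.38). Of 309 called genes with a tested neighbour, 17 (5.5%) had a called neighbour. The share of calls, 2.18% of all tested, is not directly comparable, since a gene can have a tested neighbour on each side. Whether called genes adjoin more often than randomly placed calls would was not tested. Adjacent genes can be copies with similar probes, which was not examined.

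Calls were unevenly spread over the levels. Of the 5582 probe sets with the lowest mean levels, up to 2.65, 11 were called (0.197%), of the 5582 in the middle 184 (3.30%), and of the 5582 highest, from 5.44, 170 (3.05%). The calls divided into 4 higher and 7 lower among the dimmest, 98 and 86 in the middle, and 89 and 81 among the highest. SRS3 and SWEET3 were among the dimmest calls.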

How the data were processed

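Whole-seedling RNA was measured with 1 Affymetrix AraGene 1.1 ST array per sample, and groups and replicate numbers came from the labels. Per the submitters' processing notes the authors used RMA, which corrects background, normalizes between arrays and summarises probes, and the deposited unit is log2. No source used here names the version of RMA, its probe definitions or a genome build. Scanner intensities were not analysed here, so signal over background is unknown, and the number of arrays limits the precision.

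Of the 16746 probe sets with exactly 1 gene in the platform annotation, 16601 matched a locus of RefSeq assembly TAIR10.1, which was used for names and gene order, and 145 did not. A further 758 probe sets had several genes and 20904 none, and 14920 of those tested carried a locus code only. Limma 3.58.1 in R 4.3.3 (lmFit and eBayes, two-sided) was fitted to the 6 hyperphyllin arrays, with 4 residual and 4.4 prior degrees of freedom, so that the uneven wild-type DMSO group had no part in it. P values were adjusted by Benjamini-Hochberg over the 16746 probe sets. Differences are amp1-13 minus wild type on the log2 scale with their standard error (SE) from limma. The same test was run on the 6 DMSO arrays, and the interaction on all 12. The fit was first tested on simulated data.

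The members, the 29 gene lists and the tests were chosen with earlier results of these data known. The lists held 1840 genes, of which 263 were measured, and 3 members were left out because their symbol belonged to another locus. A gene with several probe sets was represented by the one with the highest mean. The rule for named genes took the 15 highest and 15 lowest differences among calls without overlap, the 8 genes of smallest p in each direction that missed the threshold, up to 3 members per list with the smallest p, and genes named in the earlier results. The other called genes with a symbol are described as well. Alternatives were other sets of arrays or probe sets, a filter on dim probe sets, other variance priors, quantile normalization, array weights and the replicate number as a block. The counts of shared signs without array 1 of the DMSO wild type were added after seeing the data. Replicate numbers did not pair the samples.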

Additional observations from a re-analysis of the deposited data

Results flagged for a closer look

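Probe sets outside the tested set were also called in a wider fit, at a share near that of the tested ones. When all 38408 probe sets were fitted together, 134 were called, and 81 of these were among the 21662 probe sets annotated with no gene or with several (0.374% of them). The other 53 were among the 16746 with exactly 1 gene, and all 53 were also among the 365 calls of the main fit. The 2.18% called in the main comparison came from a different fit and is not the share to set beside these. Of the 81, 48 were higher and 33 lower in amp1-13, and 63 differed by at least 2-fold. They are unnamed here, and what they represent was not tested.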

How the results depend on the processing

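Against 365 calls, limma gave 46 when all 12 arrays shared the spread (19 at 2-fold or more, against 79), 555 with 11 arrays, without array 1 of the DMSO wild type, 134 over all 38408 probe sets and 592 with a trended prior. The causes were not tested. The fit over all probe sets adjusts for more tests and also had fewer prior degrees of freedom (2.44, against 4.43). Other settings stayed within 1.5 times of 365. Leaving out single arrays gave 68 to 433 calls and 41 to 120 at 2-fold or more. In DMSO the count was 0 but 1855 without array 1 of wild type, and for the interaction 0 but 464. Replicate numbers did not pair the samples (correlations of -0.09 to 0.09 in hyperphyllin), and with the replicate number as a block 292 were called, 223 of them shared. Omitting 1 array lost 124 to 298 of the 365 calls. Many named genes had no call, and those that stayed uncalled count as kept in what follows, so it does not measure how firm the calls are. Of the values of named genes under alternatives, 1681 kept their direction and side of the threshold, 94 passed newly, 147 no longer passed and 15 changed sign. All 15 were of genes without a call, with these ranges over the fits that omit 1 array: XTH26 -0.54 to 0.28 (and 0.02 with array weights), LPR2 0.00 to 0.13, ARL -0.23 to 0.02, EXPA7 -0.04 to 0.34, EXPA18 -0.27 to 0.42, LPR1 -0.15 to 0.03, DFR -0.42 to 0.03 and AOP3 -0.12 to 0.05.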
